A study of Mus musculus with 14 samples.

Results

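The 9 genes of cholesterol handling described here were followed in sorted mouse retinal microglia, and each was found under its name in the series-wide table and matched by gene identifier to the single tables: 9 of 47273 identifiers in that table. They are the efflux transporters Abca1 and Abcg1, the liver X receptors (LXR) Nr1h2 and Nr1h3, the uptake receptor Lrp1, the lysosomal export proteins Npc1 and Npc2, the esterifying enzyme Soat1 and the synthesis enzyme Hmgcs1. Each of the 14 libraries was made from the microglia of 1 retina of a wild type C57BL/6 mouse aged 12 weeks. The groups were retinas with microbead injection (3 libraries, described as glaucoma), contralateral retinas (3), retinas with sham injection (4) and retinas of naive mice (4). Beads injected into the front of the eye raise its pressure in this kind of glaucoma model. Cells were sorted as CD11b+, Ly6c-, Fcrls+. A retina gave 100 to 600 cells, and lysates were set to 100 to 300 cells in 5 µl. The labels do not say which retinas came from 1 mouse or whether replicates are separate mice, so the p-values measure the spread between these libraries.

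Microglia take up cholesterol as lipoprotein, myelin and cell debris, and the lysosome frees it through NPC2, which hands it to the membrane protein NPC1. Sterol that leaves the lysosome is stored as ester, or loaded by ABCA1 and ABCG1 onto apolipoproteins such as APOE, whose gene is itself an LXR target. Oxysterols switch on the LXRs, which raise the efflux genes, whereas a lack of sterol in the endoplasmic reticulum releases SREBP2, which raises the genes of synthesis. In bulk RNA of this kind, fewer cells with a transcript and less of it per cell cannot be told apart.

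Library totals ranged from 1340556 to 13995779 reads. Microbead 1 and contralateral 2 stood apart, with reads in 10167 and 10306 genes, against at least 13472 in every other library. All 11 microglia markers had reads in all 14 libraries, among them Fcrls and Itgam, the genes of the sorting antigens Fcrls and CD11b. Their summed CPM (counts scaled to a common library size) was 15100 to 33360 in microbead and 25300 to 39110 in contralateral retinas. It was 33080 to 36910 in sham and 22060 to 34940 in naive retinas. Rod photoreceptor markers summed to 491.7 to 4303 CPM in microbead, 2241 to 3880 in contralateral, 827 to 1642 in sham and 263.3 to 3390 in naive retinas. A length score was taken per library as the log2 level, relative to the naive mean, of genes of at most 1000 bases minus that of genes over 4000 bases. Microbead libraries scored 0.69, 0.44 and 1.11, contralateral ones 0.34, 0.77 and -0.21, sham ones -0.04 to 0.14 and naive ones -0.19 to 0.07. Short transcripts relative to long ones thus stood higher in every microbead library, and in contralateral 1 and 2, than in any sham or naive library.

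To show the sequence around the starts of a textbook LXR target and a textbook SREBP2 target, the promoter windows of Abca1 and Hmgcs1 are printed, from 250 bases before the RefSeq start to 50 after it (GRCm38.p6). Capitals mark matches to 4 motifs searched on both strands: the LXR element as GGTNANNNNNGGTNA, the sterol element as TCACNCCAC, the E-box CACGTG and the CCAAT box.
Abca1, chr4:53159846-53160145, minus strand: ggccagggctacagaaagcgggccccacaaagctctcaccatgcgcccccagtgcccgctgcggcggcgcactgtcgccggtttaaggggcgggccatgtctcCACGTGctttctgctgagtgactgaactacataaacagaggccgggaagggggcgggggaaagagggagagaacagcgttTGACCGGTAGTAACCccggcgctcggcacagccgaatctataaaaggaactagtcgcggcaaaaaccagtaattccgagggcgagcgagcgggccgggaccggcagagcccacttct
Hmgcs1, chr13:119690101-119690400, plus strand: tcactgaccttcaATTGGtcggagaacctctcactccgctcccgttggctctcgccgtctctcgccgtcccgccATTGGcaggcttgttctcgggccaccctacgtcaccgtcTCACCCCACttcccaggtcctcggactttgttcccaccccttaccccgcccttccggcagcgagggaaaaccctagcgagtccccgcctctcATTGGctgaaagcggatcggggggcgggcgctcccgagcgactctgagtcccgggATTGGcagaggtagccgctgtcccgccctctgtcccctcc
The Abca1 window holds an LXR element match on the reverse strand, with its first base at -67, and an E-box at -147. Matches to this LXR element were found in 0.718% of 32851 promoter windows of the same length, and E-boxes in 7.15%. The Hmgcs1 window holds a sterol element match at -137, a motif found in 1.24% of the windows, and 4 CCAAT boxes in reverse, of which 37.4% of the windows held at least 1. The Npc2 window holds 2 CCAAT boxes and the Soat1 window 1, whereas the windows of Nr1h2, Nr1h3 and Lrp1 hold none of the 4 motifs. No motif match was tested for binding.

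Levels of the 9 genes relative to each other were read in FPKM, the authors' read level scaled to transcript length and library depth. The lysosomal carrier Npc2 led with a mean of 188.7 ± 49.9 FPKM over the 14 libraries (SD), a mean above that of 96.2% of the genes tested. Lrp1 followed with 100.8 ± 49.6 FPKM, Soat1 with 84.2 ± 30.0 FPKM and Nr1h2 with 64.1 ± 16.5 FPKM. Neighbours among these 4 genes overlapped, but in every library Nr1h2 lay above the highest value of the next gene, Npc1. Npc1 averaged 19.0 ± 6.26 FPKM, Abcg1 15.6 ± 13.02, Abca1 11.2 ± 5.66 and Hmgcs1 6.97 ± 5.99 FPKM, each overlapping with its neighbour. The receptor Nr1h3 came last, with 0.528 ± 1.39 FPKM and reads in 4 of 14 libraries. Npc2 ranked first in the microbead, sham and naive groups, and Lrp1 ranked first in the contralateral group, where it overlapped with Npc2. In the microbead group Lrp1 ranked below Npc2, Soat1 and Nr1h2, with 42.4 ± 16.3 FPKM, against 75.4 ± 51.0 for Soat1 and 56.8 ± 10.6 for Nr1h2 (n = 3). Lrp1 overlapped there with Soat1 and Nr1h2. It lay above Soat1 in microbead 1 (23.66 against 17.72 FPKM) and above Nr1h2 in microbead 2 (50.16 against 45.95 FPKM).

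**Figure D1:**
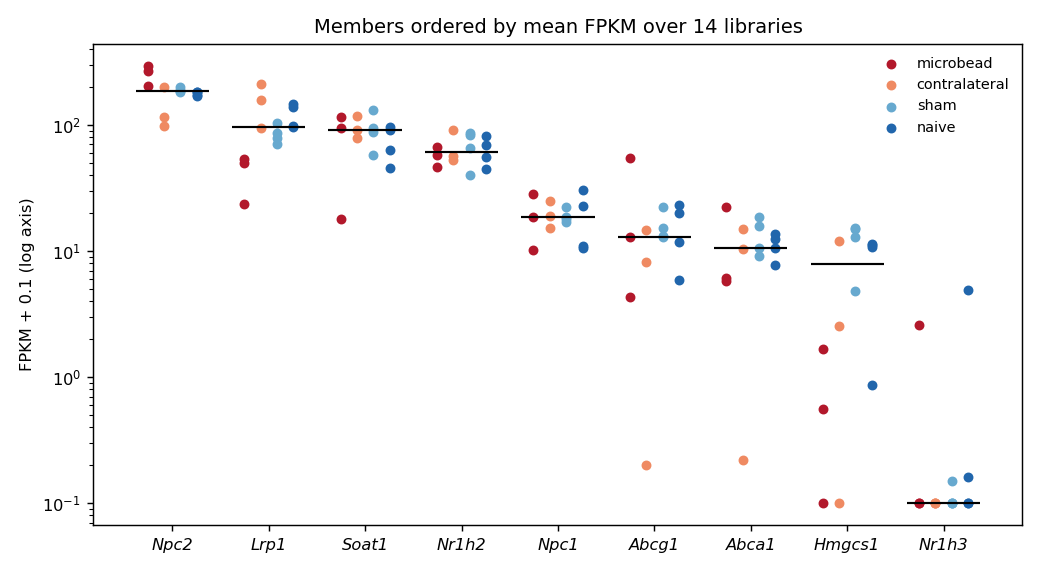
FPKM + 0.1 on a log axis for each gene, ordered from left to right by its mean over 14 libraries. Points are libraries coloured by group, and black lines are medians over all libraries. Npc2, Lrp1, Soat1 and Nr1h2 form an upper set, and most Nr1h3 points lie at the floor of the axis.

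Between groups, 1 gene at a time was compared in CPM, counts scaled to a common library size with TMM factors, with edgeR's quasi-likelihood test across 14279 genes and Benjamini-Hochberg adjustment. Of the 9 genes, 8 passed the filter on low counts, and Nr1h3 did not. At an adjusted p under 0.05, 0 of the 8 were called in microbead against sham retinas, where the test called 0.014% of all genes. It likewise called 0 of 8 against naive retinas (0.21% of all genes) and 0 of 8 against contralateral retinas (0.028%). The count was also 0 of 8 in contralateral against sham, contralateral against naive and sham against naive retinas, in each of which 0% of all genes passed. The joint test over the 4 groups called 0 of 8 as well, against 0.224% of all genes. At an unadjusted p under 0.05, Npc2 and Hmgcs1 passed against sham and against naive retinas and Npc2 and Lrp1 against contralateral retinas, that is 2 of 8 each, where 9.75%, 10.5% and 11.5% of all genes did. Lrp1 alone did so in contralateral against sham retinas, 1 of 8 against 4.86% of all genes, and in the last 2 comparisons 0 of 8 did, against 5.18% and 2.66%. In the joint test Npc2 and Lrp1 did, 2 of 8, against 8.17% of all genes. DESeq2's Wald test called 1 of the 8 against sham, 1 against naive and 2 against contralateral retinas, where it called 3.30%, 4.02% and 4.66% of all genes. Limma voom called 1, 1 and 0 of the 8, against 0.637%, 1.36% and 0.014% of all genes. In the joint test each called 1 of 8, against 3.35% of all genes by DESeq2 and 0.574% by voom. Both called 0 of 8 in the other 3 comparisons, where DESeq2 called 0.476%, 0.483% and 0.196% of all genes and voom 0%.

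**Figure D2:**
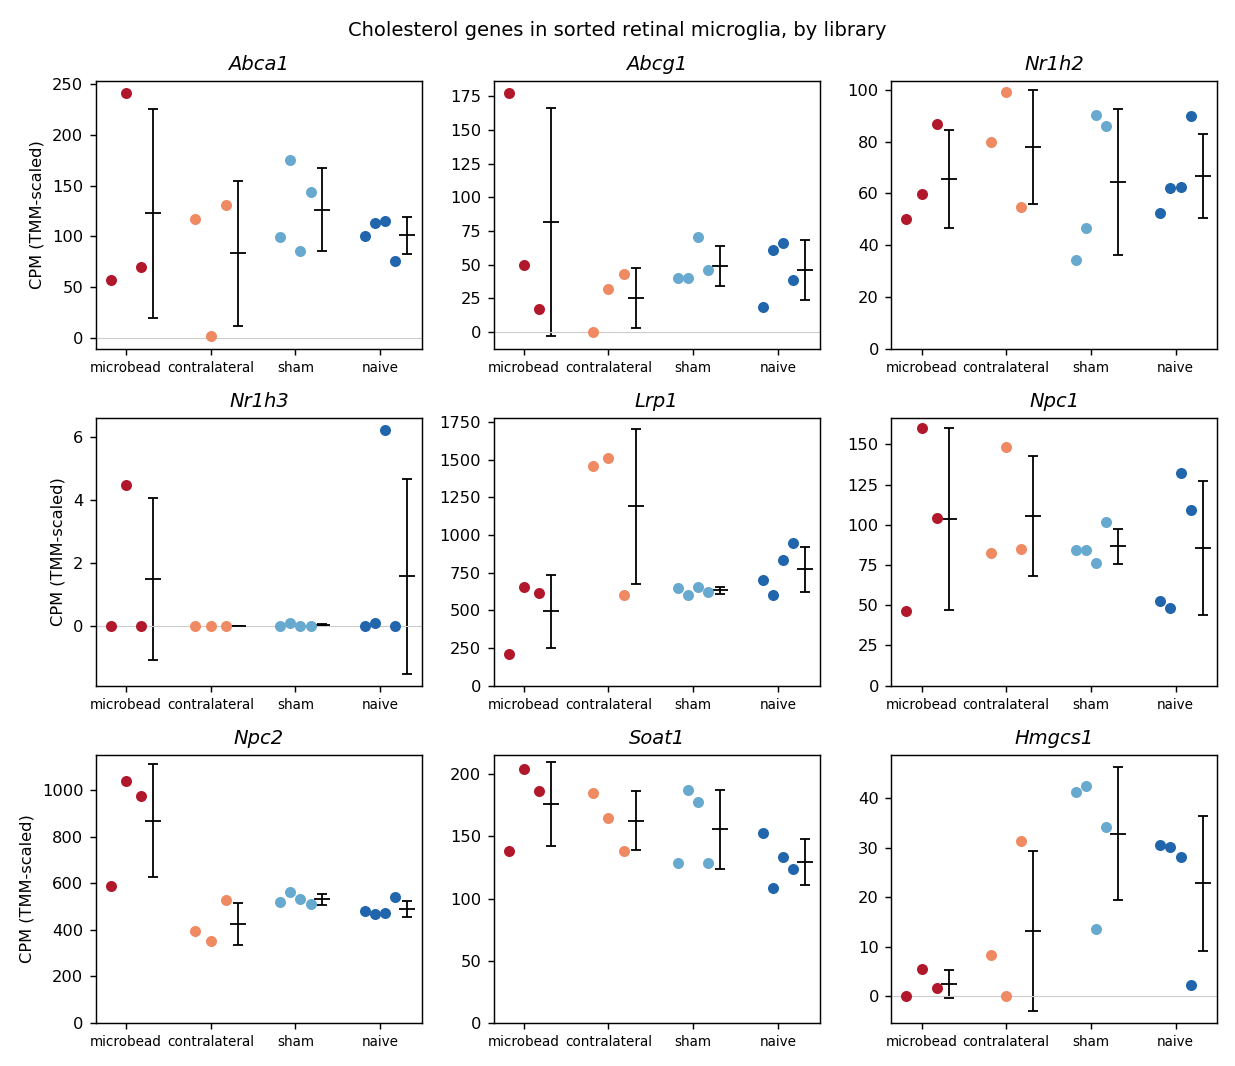
CPM of each gene in each library (points) with the mean and SD of each group (black bar), in 1 panel per gene with its own linear axis. The microbead points of Npc2 lie above all other points, those of Hmgcs1 lie below all sham points, and the remaining genes overlap between groups.

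Npc2, the soluble protein that carries cholesterol inside the lysosome (ENSMUSG00000021242.8; GENCODE M21, chromosome 12, 84754562 to 84773152, minus strand), had 589.6, 1039 and 974.7 CPM in the microbead libraries. The contralateral libraries had 395.9, 350.8 and 526.5 CPM. The sham libraries had 518.0, 564.2, 534.2 and 509.5 CPM, and the naive libraries 482.0, 466.9, 471.8 and 539.8 CPM. Each microbead library was thus above every other library, with microbead 1 the nearest to them, while the other 3 groups overlapped. Such separation, upward, was seen in 5.11% of all genes against sham, 4.85% against naive and 5.20% against contralateral retinas. The means were 868 ± 243 CPM in microbead retinas, 424 ± 91.3 CPM in contralateral retinas, 532 ± 24.1 CPM in sham retinas and 490.1 ± 33.7 CPM in naive retinas (SD, n = 3, 3, 4 and 4). The log2 fold change in edgeR's quasi-likelihood test was 0.71 against sham (SE 0.24, adjusted p = 0.323). Against naive retinas it was 0.82 in the same edgeR test (SE 0.24, adjusted p = 0.17), and against contralateral retinas 1.03 (SE 0.26, adjusted p = 0.116). The 3 microbead comparisons share the same 3 microbead libraries. The call differed between tools. DESeq2's Wald test gave adjusted p = 0.0274 against sham, 0.00648 against naive and 0.000792 against contralateral retinas, and limma voom gave 0.034 against sham and 0.00759 against naive retinas. Over all the alternatives the adjusted p ran from 0.0274 to 0.821, from 0.00648 to 0.533 and from 0.000792 to 1 in these 3 comparisons, and the log2 fold change stayed above 0 in each.

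In FPKM, the microbead libraries had 202.6, 294.3 and 268.2 for Npc2. Contralateral libraries had 115.1, 98.1 and 198.7 FPKM, and the sham and naive ones lay between 168.1 and 199.9 FPKM. The microbead values again did not overlap with the others, upward as in 3.16% of all genes against sham, 3.21% against naive and 4.12% against contralateral retinas. Limma on log2(FPKM + 1), a setting chosen after seeing the data, gave 0.41 against sham (adjusted p = 0.568), 0.51 against naive (adjusted p = 0.446) and 0.94 against contralateral retinas (adjusted p = 0.169). FPKM has no TMM scaling, and on that scale the median of all genes was -0.40 against sham and -0.41 against naive retinas, in place of -0.12 and -0.14 in CPM. Relative to those medians Npc2 lay higher on both scales. The summed CPM of 12 monocyte and macrophage markers was 142.9 to 252.5 in microbead, 15.0 to 67.5 in contralateral, 29.7 to 202.1 in sham and 7.46 to 23.1 in naive retinas. Ly6c2, Chil3 and F10, which are among these markers, were at 0 in all 14 libraries. The part of these markers, or of the length score, in the Npc2 values was not tested beyond a fit with the length trend removed, in which its log2 fold change was 1.10 against sham, 1.26 against naive and 1.00 against contralateral retinas. All-gene medians in that fit were -0.004, 0 and -0.22 in the same order.

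Npc1, the lysosomal membrane partner of Npc2 (ENSMUSG00000024413.13; chromosome 18, 12189692 to 12236400, minus strand), had 46.7, 160.1 and 104.4 CPM in the microbead libraries. It had 82.5, 148.5 and 85.1 CPM in the contralateral libraries. Sham libraries had 84.3, 84.6, 76.0 and 101.8 CPM, and the naive libraries 52.7, 48.1, 132.0 and 109.0 CPM. The groups overlapped throughout, and the microbead libraries held both the lowest and the highest of the 14 values. The log2 fold change of microbead retinas was 0.26 (SE 0.46) against sham, 0.28 (SE 0.46) against naive and -0.02 (SE 0.50) against contralateral retinas. Npc1 shares its locus with the antisense gene Gm15956 (at most 21 reads in a library) and with Rmc1 on the other strand (up to 1007 reads), and whether reads were counted by strand is not stated.

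Lrp1, a large endocytic receptor of the LDL receptor family that takes up APOE-bearing particles (ENSMUSG00000040249.15; chromosome 10, 127538161 to 127621148, minus strand), had 212.6, 652.6 and 614.0 CPM in the microbead libraries. In contralateral retinas the libraries had 1456, 1512 and 599.6 CPM. In sham retinas the libraries had 645.4, 602.8, 657.6 and 622.1 CPM, and the naive libraries 698.0, 602.9, 836.8 and 945.9 CPM. Contralateral 1 and 2 were the highest of the 14 libraries and microbead 1 the lowest, while contralateral 3 lay below all 4 sham libraries. The means were 493 ± 244 CPM in microbead retinas, 1189 ± 512 CPM in contralateral retinas, 632 ± 24.4 CPM in sham retinas and 771 ± 151 CPM in naive retinas (SD, n = 3, 3, 4 and 4). In edgeR's quasi-likelihood test the log2 fold change of microbead against contralateral retinas was -1.27 (SE 0.38, adjusted p = 0.203), and that of contralateral against sham retinas was 0.91 (SE 0.35, adjusted p = 0.963). Microbead retinas differed by -0.36 (SE 0.35) from sham and by -0.64 (SE 0.35) from naive retinas. DESeq2's Wald test called the difference from contralateral retinas (-1.24, adjusted p = 0.0337), and over all alternatives the adjusted p ran from 0.0337 to 1. In edgeR without contralateral 2 and microbead 1, the libraries with few genes, the difference was -0.68 (adjusted p = 0.613).

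The FPKM of Lrp1 gave a wider gap than its CPM. Microbead libraries had 23.7, 50.2 and 53.5 FPKM. The contralateral libraries had 157.9, 212.6 and 94.9 FPKM, the sham libraries 69.9 to 103.9 FPKM and the naive libraries 96.5 to 147.7 FPKM. In this unit each microbead library was below every library of the other 3 groups, a downward separation seen in 10.7% of all genes against sham, 9.84% against naive and 7.21% against contralateral retinas. In CPM the groups overlapped. Limma on log2(FPKM + 1) gave -1.04 against sham (adjusted p = 0.27), -1.54 against naive (adjusted p = 0.101) and -1.85 against contralateral retinas (adjusted p = 0.05), and the all-gene medians on that scale were -0.40, -0.41 and -0.13. Lrp1 is a long transcript, at 8189 bases in the tables. With the length trend removed, the differences were -0.05 against sham, -0.22 against naive and -1.54 against contralateral retinas, in place of -0.36, -0.64 and -1.27. The all-gene medians in that fit were -0.004 against sham, 0 against naive and -0.22 against contralateral retinas. Beyond that fit, the part of the length score in the Lrp1 values was not tested. The summed CPM of 9 markers of border-associated macrophages was 221.9 to 332.0 in microbead, 760.6 to 1052 in contralateral, 396.9 to 612.1 in sham and 380.3 to 543.3 in naive retinas. Most of this sum was Stab1, with 127.1 to 217.3 CPM in microbead, 445.6 to 1009 in contralateral, 325.3 to 409.3 in sham and 319.3 to 424.7 CPM in naive retinas. Ms4a7 ran the other way, with 88.3 to 101.6 CPM in microbead, 21.9 to 35.7 in contralateral, 22.6 to 51.6 in sham and 0.407 to 75.8 CPM in naive retinas. Mrc1 had 0 to 13.1, 0 to 72.5, 14.6 to 77.1 and 13.5 to 63.0 CPM in these groups. Contralateral 1 and 2 lay above all sham libraries both in Lrp1 CPM and in the sum. Contralateral 3 lay below all sham libraries in Lrp1 CPM and above them in the sum. Of those markers Cd163, Lyve1 and Cbr2 were at 0 in the microbead libraries and Cbr2 in the contralateral and naive ones, and their part in the Lrp1 values was not tested.

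Abca1, which loads cholesterol onto lipid-poor apolipoproteins (ENSMUSG00000015243.4; chromosome 4, 53030787 to 53159895, minus strand), had 57.4, 241.3 and 69.7 CPM in the microbead libraries. Contralateral libraries had 117.3, 1.42 and 131.1 CPM, the second of these from 9 reads. The sham libraries had 99.7, 175.6, 86.0 and 143.5 CPM, and the naive libraries 100.2, 112.9, 115.1 and 75.6 CPM. Both the highest value and 2 of the 3 lowest were microbead libraries, and all groups overlapped. The log2 fold change of microbead retinas was -0.04 (SE 0.79) against sham, 0.29 (SE 0.78) against naive and 0.56 (SE 0.84) against contralateral retinas, none past the threshold and none with a stable sign over the alternatives. A log2 fold change within about 1 SE of 0 does not show equal levels.

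Abcg1, which exports sterol to formed high-density particles (ENSMUSG00000024030.6; chromosome 17, 31057675 to 31117988, plus strand), had 177.4, 49.9 and 17.1 CPM in the microbead libraries. In contralateral retinas the libraries had 0.38, 32.2 and 43.4 CPM, the first of these from 2 reads. Sham libraries had 40.0, 40.1, 70.7 and 45.7 CPM, and the naive libraries 18.4, 60.7, 66.5 and 38.6 CPM. The microbead mean of 81.5 ± 84.7 CPM rests on microbead 1, the shallowest library, which alone lay above all sham and naive libraries. The contralateral, sham and naive means were 25.3 ± 22.3, 49.1 ± 14.6 and 46.0 ± 22.0 CPM (SD, n = 3, 4 and 4). The log2 fold change was 0.72 (SE 0.91) against sham, 0.81 (SE 0.91) against naive and 1.67 (SE 1.01) against contralateral retinas. Left without microbead 1 and contralateral 2, the first 2 of these became -0.57 and -0.49. Against contralateral retinas it was 0.42 without microbead 1 and 2.31 without contralateral 3.

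Nr1h2, the LXR expressed in most tissues (ENSMUSG00000060601.13; chromosome 7, 44549616 to 44553951, minus strand), had 50.3, 59.6 and 86.7 CPM in the microbead libraries. The contralateral libraries had 80.0, 99.0 and 54.8 CPM, the sham libraries 34.1 to 90.2 CPM (median 66.4) and the naive libraries 52.3 to 90.0 CPM (median 62.2). The groups overlapped, and the log2 fold change of microbead retinas was 0.03 (SE 0.46) against sham, -0.02 (SE 0.46) against naive and -0.25 (SE 0.49) against contralateral retinas. Nr1h3, the LXR of macrophages and liver (ENSMUSG00000002108.10; chromosome 2, 91184061 to 91202834, minus strand), had 0, 4.46 and 0 CPM in the microbead libraries and 0 in all 3 contralateral ones. It had 0, 0.0702, 0 and 0 CPM in the sham libraries and 0, 0.0749, 6.21 and 0 CPM in the naive ones. These values rest on 40 reads in microbead 2, 78 in naive 3 and 1 each in sham 2 and naive 2. In the 10 libraries at 0, which held 1340556 to 13995779 reads, a count of 0 allows up to 3 reads, or 0.192 to 2.15 CPM, by counting error alone. No group comparison was made. In FPKM, Nr1h2 lay above Nr1h3 in all 14 libraries.

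Soat1, which esterifies free cholesterol for storage in droplets (ENSMUSG00000026600.12; chromosome 1, 156424525 to 156474331, minus strand), had 138.6, 203.9 and 186.5 CPM in the microbead libraries. It had 185.0, 165.1 and 137.9 CPM in the contralateral libraries. In sham retinas the libraries had 128.3, 187.6, 177.9 and 128.5 CPM, and the naive libraries 152.4, 108.2, 133.7 and 123.7 CPM. Soat1 was the steadiest of the 8 genes over the 14 libraries, with an SD of 0.28 in log2 CPM, and its groups overlapped. The log2 fold change was 0.18 (SE 0.30) against sham, 0.45 (SE 0.30) against naive and 0.12 (SE 0.32) against contralateral retinas. In FPKM microbead 1 stood at 17.7, the lowest of the 14 libraries, whose other values ran from 45.2 to 130.3.

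Hmgcs1, the enzyme that makes HMG-CoA in the path to sterol (ENSMUSG00000093930.1; chromosome 13, 119690379 to 119708260, plus strand), had 0 reads in microbead 1 and contralateral 2. Reads were also few, from 19 to 49, in microbead 2 and 3, contralateral 1 and naive 4. It had 0, 5.47 and 1.67 CPM in the microbead libraries, from 0, 49 and 19 reads. Contralateral libraries had 8.37, 0 and 31.3 CPM, from 44, 0 and 489 reads. The sham libraries had 41.3, 42.4, 13.5 and 34.1 CPM, and the naive libraries 30.5, 30.1, 28.2 and 2.22 CPM. Every microbead library was below every sham library, a downward separation seen in 7.08% of all genes, but naive 4 and contralateral 2 overlapped with the microbead range. In microbead 1, with 1340556 reads in all, 3 reads would have been 2.15 CPM. The means were 2.38 ± 2.80 CPM in microbead retinas, 13.2 ± 16.2 CPM in contralateral retinas, 32.8 ± 13.4 CPM in sham retinas and 22.8 ± 13.7 CPM in naive retinas (SD, n = 3, 3, 4 and 4). In edgeR's quasi-likelihood test the log2 fold change was -3.69 against sham (SE 1.53, adjusted p = 0.456), -3.16 against naive (SE 1.49, adjusted p = 0.47) and -2.38 against contralateral retinas (SE 1.49, adjusted p = 0.542). It stayed below 0 under each alternative, between -5.01 and -2.94 against sham retinas, where the adjusted p ran from 0.0756 to 0.821, and between -4.49 and -2.26 against naive retinas. Against contralateral retinas it was -0.72 without contralateral 3 and -3.70 without microbead 2, the ends of its range. Of the 8 genes tested, Hmgcs1 had the fewest reads.

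**Figure D3:**
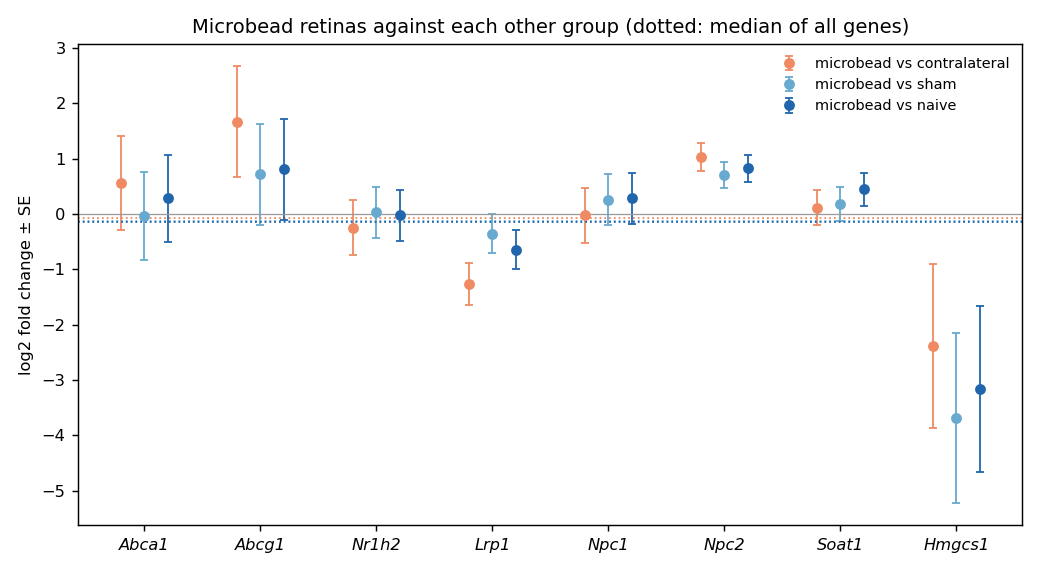
Log2 fold change with its SE of the 8 genes tested, for microbead retinas against contralateral, sham and naive retinas. Dotted lines mark the medians of all genes, at -0.08, -0.12 and -0.14. Npc2 lies above 0 and Hmgcs1 below 0 in all 3 comparisons, and no gene passed the adjusted threshold.

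Over the 8 genes the median log2 fold change of microbead retinas was 0.11 against sham, 0.29 against naive and 0.05 against contralateral retinas, beside all-gene medians of -0.12, -0.14 and -0.08. These medians moved with the scaling. On log2(FPKM + 1) they were -0.33 against sham, -0.16 against naive and -0.17 against contralateral retinas, beside all-gene medians of -0.40, -0.41 and -0.13. With the length trend removed they were 0.35 against sham, 0.63 against naive and -0.19 against contralateral retinas, beside all-gene medians of -0.004, 0 and -0.22. Of the 8, 5 were higher against sham and against naive retinas and 4 against contralateral retinas, where 54%, 54.8% and 52.4% of all genes lay below 0. In contralateral retinas the medians were -0.13 against sham and 0.01 against naive retinas, beside all-gene medians of -0.04 and -0.06. With the length trend removed they became 0.35 and 0.42, beside all-gene medians of 0.21 and 0.19. In sham against naive retinas the median was 0.10. Sham retinas did not overlap with naive retinas in 0 of the 8 genes, against 2.98% of all genes. Contralateral retinas likewise separated from sham and from naive retinas in 0 of 8, against 5.92% and 6.21%.

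The genes with profiles most like each member were sought among 8171 others by the root mean square difference of centred log2 CPM over the 14 libraries, as a description with no test. The measure grows with the spread of a gene over the libraries. Npc2 was nearest to Mpeg1 (0.23), a macrophage pore-forming protein, and Atp6v0e (0.25), a subunit of the proton pump of the lysosome, against a median of 1.19 over all candidates. Soat1 was nearest to Sf3b1 (0.20) and C1qa (0.21), and Lrp1 to Arhgap39 (0.27) and Card9 (0.27). Nr1h2 was nearest to Mcur1 (0.31) and Parp1 (0.32), Npc1 to Tapbp (0.29) and Mrpl24 (0.31), and Abca1 to Zdhhc4 (0.47) and Uso1 (0.49). Abcg1 and Hmgcs1 had less close neighbours, with Trmt6 (0.54) and Larp4 (0.79) for Abcg1, Poglut1 (0.93) and Mrps31 (1.03) for Hmgcs1. All these profiles come from the same libraries and share their depth.

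Other genes of the pathway were read in 9 lists, and the LXR target and efflux apolipoprotein Apoe was the only one called. Apoe rose in microbead retinas, with 19620, 53580 and 24310 CPM, against 1494 to 7555 CPM in contralateral, 3268 to 5568 CPM in sham and 3472 to 7578 CPM in naive retinas. Its log2 fold change in edgeR's quasi-likelihood test was 2.93 against sham (SE 0.44, adjusted p = 0.0366), 2.60 against naive (SE 0.43, adjusted p = 0.0244) and 2.91 against contralateral retinas (SE 0.49, adjusted p = 0.04). The log2 fold change stayed above 2 in each alternative, but the call did not hold in each. Leaving out 1 library ended it in 8 of 14 cases against sham, in 5 against naive and in 11 against contralateral retinas, with the adjusted p up to 0.263, 0.114 and 0.0996. Of the 12 other alternatives, 4 ended it against sham, 4 against naive and 7 against contralateral retinas. Among them was the replicate block, with 1 term per replicate number shared by all 4 groups, where edgeR gave adjusted p = 0.108, 0.0712 and 0.1. The block with the length trend removed gave 0.342, 0.312 and 0.482, and the compared groups alone 0.0638 against sham and 0.487 against contralateral retinas. Limma on FPKM gave 0.0563 against sham and 0.0656 against naive retinas, and voom 0.372 against contralateral retinas. Each of the 4 naive libraries ended all 3 calls when left out, microbead 2 the last 2, the 4 sham libraries the first and last, and contralateral 1 and 2 the last alone. Of 13 tested LXR targets other than the members, edgeR called 1, Apoe, as higher and 0 as lower in each microbead comparison. Of the 13, 6 lay above 0 against sham, 6 against naive and 5 against contralateral retinas, where 54%, 54.8% and 52.4% of all genes lay below 0. The median of the 13 was -0.01 against sham, -0.20 against naive and -0.36 against contralateral retinas. Apoc1 and Fasn, with the next smallest joint p, had 0, 41.3 and 3.34 and 7.90, 21.2 and 12.4 CPM in the microbead libraries, beside 0 to 0.0640 and 7.17 to 159 CPM in the contralateral, 0 to 4.93 and 0 to 17.5 CPM in the sham and 2.31 to 4.20 and 9.55 to 27.4 CPM in the naive ones. Of 6 tested efflux genes Apoe alone was called, while 2 lay above 0 against sham, 2 against naive and 1 against contralateral retinas, beside the same shares of all genes. The lipoprotein receptor Scarb1 had 48.8, 54.8 and 85.3 CPM in microbead, 78.6 to 259 in contralateral, 69.1 to 138 in sham and 57.2 to 113 in naive retinas. Abca2, a transporter of the same family as Abca1, had 6.46, 21.7 and 30.1 CPM in microbead retinas, below the contralateral range of 57.8 to 146 CPM, where sham retinas had 21.02 to 103 and naive retinas 22.0 to 77.3 CPM.

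The 75 tested genes of the other 7 lists gave 0 calls in each of the 3 microbead comparisons by edgeR's quasi-likelihood test. At an unadjusted p under 0.05 there were 7 against sham, 7 against naive and 12 against contralateral retinas, beside the 9.75%, 10.5% and 11.5% of all genes given above. DESeq2's Wald test called 1, 3 and 2 of the 75, beside 3.30%, 4.02% and 4.66% of all genes, and limma voom 0 in each, beside 0.637%, 1.36% and 0.014%. Of the 23 genes of sterol synthesis and SREBP2 targets, 18 lay below 0 against sham retinas, 14 against naive and 16 against contralateral retinas, where 54.0%, 54.8% and 52.4% of all genes did. Their medians were -0.47, -0.75 and -0.59, and 1, 0 and 1 of them were lower at an unadjusted p under 0.05. The mevalonate pathway kinase Pmvk had 57.4, 40.5 and 51.6 CPM in microbead, 11.1 to 36.6 in contralateral, 10.8 to 28.8 in sham and 9.79 to 52.4 CPM in naive retinas. Mvk, the kinase of the step before, had 2.15, 0 and 12.0 CPM in microbead, 0 to 25.7 in contralateral, 7.36 to 27.0 in sham and 0 to 3.66 CPM in naive retinas. Neither kinase passed the test. Of the 7 genes of the SREBP machinery, 7, 6 and 6 lay below 0, with medians of -0.89, -0.62 and -0.81. Insig2, which holds the SREBP complex in the endoplasmic reticulum, had 4.31, 0 and 0.967 CPM in the microbead libraries, below all 17.7 to 119 CPM in contralateral, 10.04 to 44.7 CPM in sham and 11.8 to 25.5 CPM in naive libraries. Its log2 fold change in edgeR's quasi-likelihood test was -4.05 against sham (SE 1.31, adjusted p = 0.298), -3.61 against naive (SE 1.29, adjusted p = 0.329) and -5.14 against contralateral retinas (SE 1.4, adjusted p = 0.152), and DESeq2's Wald test called it in each. Over its alternatives the adjusted p ran from 0.00983 to 0.821, from 0.0249 to 0.794 and from 0.000779 to 1. Downward separation from sham retinas was seen in 7.08% of all genes, and Insig2 was named for a small joint p, which favours separation. Insig1 had 3.59, 9.04 and 58.6 CPM in microbead, 41.6 to 68.7 in contralateral, 23.5 to 70.6 in sham and 19.2 to 59.4 CPM in naive retinas. The SREBP escort Scap had 2.87, 35.8 and 21.6 CPM in microbead, 0.473 to 189 in contralateral, 9.80 to 56.0 in sham and 22.9 to 52.8 CPM in naive retinas.

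Among the oxysterol enzymes, Hsd3b7, of bile acid synthesis, had 188.2, 154.9 and 118.6 CPM in microbead retinas, above 77.9 to 104 CPM in contralateral, 41.2 to 115 CPM in sham and 28.9 to 115 CPM in naive retinas. Upward separation was seen in 5.11%, 4.85% and 5.20% of all genes against sham, naive and contralateral retinas. In edgeR's quasi-likelihood test Hsd3b7 had adjusted p = 0.461, 0.42 and 0.551 in the same order. List genes were named for a small joint p, which favours such separation, upward or downward. This holds as well for Insig2, Abca2, Ncoa3, Osbpl11 and Osbpl1a. Ch25h, which makes the LXR ligand 25-hydroxycholesterol, had 10.05, 74.6 and 48.6 CPM in microbead retinas, against 0 to 6.78 CPM in contralateral, 0 to 16.4 CPM in sham and 1.36 to 8.47 CPM in naive retinas. Cyp46a1, which makes the brain oxysterol, was at 0 in the 3 microbead libraries and between 0 and 9.48 CPM in the others. In the ester and droplet list, Soat2, the second esterifying enzyme, had 151.5, 10.6 and 61.9 CPM in microbead retinas. It had 0 to 0.380 CPM in contralateral, 0 to 24.0 CPM in sham and 0.0822 to 4.05 CPM in naive retinas. Nceh1, which splits cholesterol esters, had 2.15, 192.6 and 197.4 CPM in microbead, 0 to 34.1 in contralateral, 28.3 to 77.7 in sham and 38.2 to 53.1 CPM in naive retinas. The fat lipase Pnpla2 had 5.03, 15.7 and 21.3 CPM in microbead, 4.89 to 155.2 in contralateral, 37.7 to 77.3 in sham and 17.8 to 43.7 CPM in naive retinas.

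Of the uptake receptors other than Lrp1, Trem2, which binds lipids and lipoproteins on microglia, had 1629, 2038 and 2278 CPM in microbead, 1357 to 2858 in contralateral, 1601 to 1743 in sham and 1384 to 1701 CPM in naive retinas. The microbead range of Trem2 overlapped with those of the contralateral, sham and naive retinas. Olr1, a receptor of oxidised lipoprotein, was at 0 in all microbead and contralateral libraries and reached 11.5 CPM in sham and 11.8 CPM in naive ones. In the endolysosomal list, the membrane protein Lamp1 had 486, 448 and 317 CPM in microbead, 225 to 317 in contralateral, 179 to 811.5 in sham and 482 to 745 CPM in naive retinas. The oxysterol-binding relative Osbpl11 had 23.0, 43.0 and 12.7 CPM in microbead retinas, below all naive libraries at 59.1 to 101 CPM, but overlapping with 34.6 to 59.3 CPM in contralateral and 27.0 to 71.9 CPM in sham retinas. Osbpl1a had 0, 2.68 and 1.41 CPM in microbead retinas, below 9.97 to 26.4 CPM in naive ones, but overlapping with 0 to 38.6 CPM in contralateral and 0.492 to 28.8 CPM in sham retinas. Among the LXR partners, the coactivator Ncoa3 had 20.1, 140.0 and 133.9 CPM in microbead retinas, below the contralateral range of 154 to 340 CPM, where sham retinas had 162 to 254 and naive retinas 113 to 221 CPM. The partner receptor Rxrg had 197.5, 0.781 and 26.2 CPM in microbead, 0 to 9.02 in contralateral, 0 to 19.5 in sham and 0.0749 to 39.2 CPM in naive retinas.

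**Figure D4:**
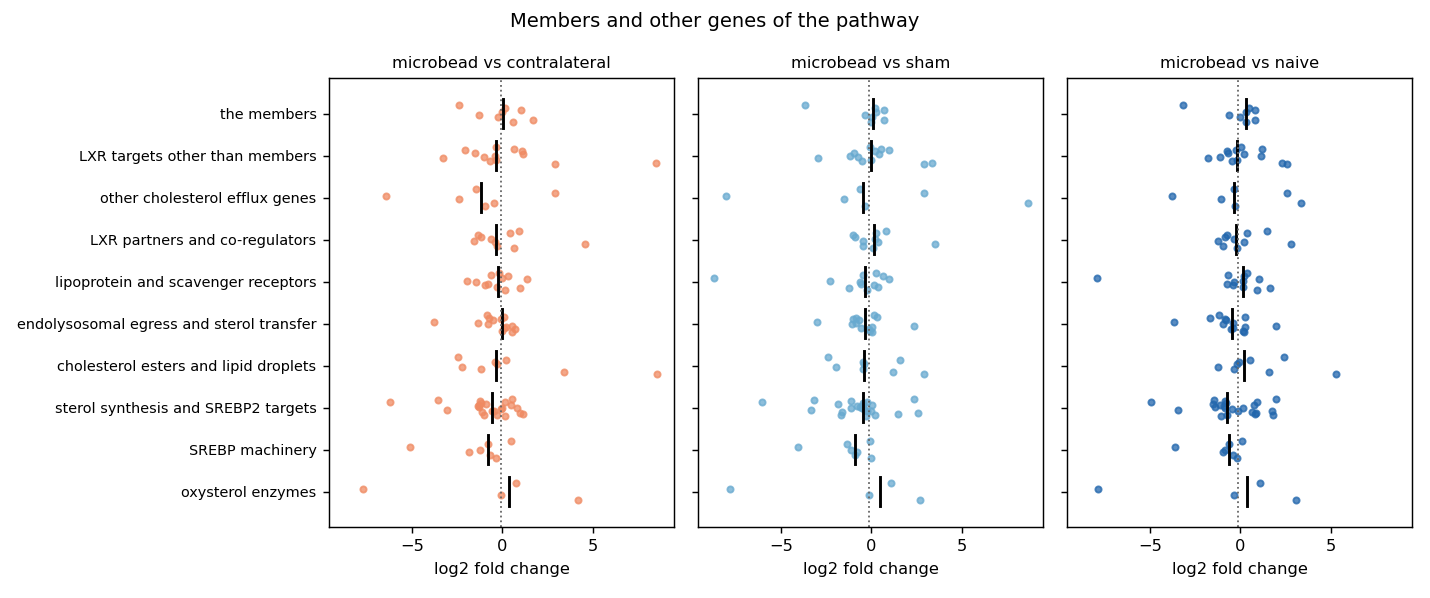
Log2 fold change of each tested gene (points) among the members and in the 9 lists, for microbead retinas against contralateral, sham and naive retinas. Black bars are list medians and dotted lines the medians of all genes. Fitted values beyond about 5 belong to genes at or near 0 reads in 1 group and depend on the prior count. Most points of sterol synthesis and SREBP machinery lie left of the dotted line.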

How the data were processed

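RNA of sorted retinal microglia was measured by SMART-Seq2 in 14 libraries, grouped by the labels. The deposited table of each library holds an expected count for every gene, an unscaled estimate of its reads, and an FPKM value that the authors scaled to effective length and depth, per the file headers. For the program behind these columns, no name is given in the sources used here. The submitters' processing notes name, with no role for any, the build mm10, DESeq2 1.30.1, Salmon 1.4.0 and R 4.0.3. A series-wide table by the authors repeats the FPKM of 47273 identifiers with gene names.

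Expected counts were rounded and fitted in R 4.3.3 with edgeR 4.0.16: filterByExpr with a minimum count of 10 left 14279 genes, TMM scaling, 1 coefficient per group, and 1 robust quasi-likelihood fit over all libraries (10 residual degrees of freedom, common biological coefficient of variation 1.13). Tests were two-sided with Benjamini-Hochberg adjustment over all genes at 0.05. The SE is the log2 fold change over the root of F. Alternatives used DESeq2 1.42.0, limma 3.58.1, other filters and scalings, and libraries left out. Coordinates come from GENCODE M21, by identifier, with the version left aside for Abcg1, Npc1, Npc2 and Hmgcs1, and promoters from RefSeq, whose table was matched for 7 members (Abcg1 is named only, and Npc1 is not printed).

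The 9 members, the pathway lists, the markers and the tests were chosen with earlier results of these data known. All members were named, with each list gene past the threshold and, per list, the 3 genes of smallest joint p, some of which are not reported here. The 2 likest genes per member needed a mean of at least 10 CPM. Log2 CPM used a prior count of 2. Of the list genes, 11 failed the filter, among them Abcg5, Abcg8, Pparg and Lrp8. Floors of 3 reads cover counting error only.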

Additional observations from a re-analysis of the deposited data

Results flagged for a closer look

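In groups of 4 libraries, the highest and lowest library of each member was set against its nearest neighbour. Of 18 groups checked, 3 held a library whose gap to the next passed Dixon's 95% critical value. Hmgcs1 had 2.22 CPM in naive 4, where the next lowest naive library had 28.2 CPM, and chance alone gives about 1 such group in 20. Nr1h3 had 6.21 CPM in naive 3, from 78 reads, where the next highest had 0.0749 CPM. Nr1h3 had 0.0702 CPM in sham 2, from 1 read, where the other 3 sham libraries were at 0. For Nr1h3, with nearly all libraries at 0, reads in 1 library meet the criterion by construction, so the rate of 1 in 20 does not apply to it.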

How the results depend on the processing

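Of the 48 log2 fold changes of the 8 members in 6 comparisons, 25 turned in sign in at least 1 alternative, each of them past no threshold. Over 1248 alternatives, 1157 kept sign and side of the threshold, 7 passed it newly and 84 turned, and the cause was not tested. Npc2, Lrp1 and Hmgcs1 kept their sign in every microbead comparison. The 7 were Npc2 by DESeq2's Wald test in the 3 microbead comparisons, by limma voom against sham and naive, and without the libraries under 12000 genes against naive retinas, and Lrp1 by DESeq2 against contralateral retinas.

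Members called went to 1 by DESeq2 in microbead against sham, against naive and in the joint test, to 2 against contralateral retinas, to 1 by voom against sham, naive and in the joint test, and to 1 against naive retinas without the libraries under 12000 genes. Genes called, in the order microbead against sham, naive and contralateral, then the joint test, were 2, 30, 4 and 32. DESeq2 gave 471, 574, 666 and 478, voom 91, 194, 2 and 82, no filter 139, 162, 157 and 314, and a minimum count of 50 gave 33, 50 and, in the joint test, 55. Removal of the length trend gave 1, 1, 0 and 2, and the libraries over 12000 genes 7 and 9 against sham and contralateral retinas and 11 jointly. The compared groups alone gave 0, 5 and 0, DESeq2 size factors 46 against naive and 54 jointly, and FPKM, chosen after seeing the data, 7, 98 and 9 against sham, contralateral and jointly. In contralateral against sham, contralateral against naive and sham against naive retinas, 0 genes became 22, 21 and 14 with no filter and 68, 69 and 28 by DESeq2. With 1 library left out, genes called ran from 0 to 134, 0 to 168, 0 to 162 and 5 to 94 in the first 4, and from 0 to 21 and 0 to 11 in contralateral against sham and naive retinas.

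The replicate block gave libraries of equal number 1 shared term across all 4 groups, sham and naive included, so it does not test pairing of eyes. It called 0, 1, 0 and 1 genes, with or without removal of the length trend. The labels do not say whether equal numbers mark eyes of 1 mouse, and the libraries were treated as unpaired. Same-numbered microbead and contralateral libraries had correlations of their deviations between -0.05 and 0.12, with 1 of 3 over 0.1. The block alone turned Nr1h2 against naive retinas to 0.13. With the length trend removed as well it turned Abca1 against sham to 0.10, Nr1h2 against naive to 0.20, and Npc2 in contralateral retinas to 0.0853 against sham and 0.24 against naive. In that fit the all-gene medians of contralateral retinas were 0.0902 against sham and 0.119 against naive.

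The turned log2 fold changes in microbead against sham retinas were as follows. FPKM gave Abcg1 -0.046, Nr1h2 -0.22, Npc1 -0.11 and Soat1 -0.61, no filter Nr1h2 -0.014, and voom Abcg1 -0.53. Removal of the length trend gave Abca1 0.15, and the libraries over 12000 genes Abca1 0.27 and Abcg1 -0.57. Against naive retinas, FPKM gave Abca1 -0.19 and Soat1 -0.28, DESeq2 Nr1h2 0.0198, its size factors Nr1h2 0.0176, voom Abcg1 -0.63 and Nr1h2 0.14, and the libraries over 12000 genes Abcg1 -0.49 and Nr1h2 0.11. Against contralateral retinas, FPKM gave Soat1 -0.69. Npc1 was 0.0357 with no filter, 0.0463 at a minimum count of 50, 0.00975 by DESeq2, 0.00628 with its size factors, 0.41 by voom, 0.0404 with the identifiers of the series-wide table, 0.0247 with the compared groups alone and 0.66 in the libraries over 12000 genes. Nr1h2 was 0.0946 by voom and 0.13 in those libraries.

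In contralateral against sham retinas, FPKM gave Nr1h2 -0.0174, no filter Soat1 -0.0192, removal of the length trend Npc2 0.11, and the libraries over 12000 genes Npc1 -0.0758. Against naive retinas, removal of the length trend gave Npc2 0.26, and the libraries over 12000 genes Abca1 0.27, Nr1h2 -0.0151 and Npc1 -0.0506. With the length trend removed, the all-gene medians of contralateral retinas were 0.206 against sham and 0.188 against naive retinas. In sham against naive retinas, FPKM gave Nr1h2 0.10 and voom Abcg1 -0.0945.

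With 1 library left out, microbead against sham ran from -1.02 to 0.27 for Abca1, -0.57 to 1.19 for Abcg1, -0.24 to 0.24 for Nr1h2 and -0.22 to 0.58 for Npc1. Against naive it ran from -0.69 to 0.60 for Abca1, -0.49 to 1.27 for Abcg1, -0.29 to 0.16 for Nr1h2 and -0.20 to 0.61 for Npc1. Against contralateral it ran from -0.39 to 1.05 for Abca1 and -0.42 to 0.38 for Npc1. Contralateral against sham ran from -0.10 to 0.17 for Soat1 and -0.0771 to 0.41 for Npc1, and against naive from -0.77 to 0.27 for Abca1, -0.0154 to 0.42 for Nr1h2 and -0.051 to 0.59 for Npc1. Sham against naive ran from -0.26 to 0.16 for Nr1h2, -0.18 to 0.32 for Abcg1 and -0.17 to 0.31 for Npc1. Hmgcs1 against contralateral ran from -3.70 to -0.72 and Abcg1 from 0.42 to 2.31, with no change of sign. Precision at low counts is limited most in microbead 1, where 3 reads are 2.15 CPM, and Hmgcs1 and Nr1h3 had 0 reads there.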
